A study of Mus musculus with 15 samples.

Results

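The interferon gamma and T-bet axis was followed through 6 genes in B cells of AM-14 mice: Ifng, the cytokine, Tbx21, which encodes the transcription factor T-bet, Eomes, its close relative, Stat4, the signal transducer below the interleukin 12 receptor, and Il12rb1 and Il12rb2, the chains of that receptor. They were chosen by name, and all 7 of their probe sets among 45037 non-control probe sets were used, with 2 for Eomes and 1 for each other gene. The series holds 15 Affymetrix mouse arrays in 5 groups of 3: anti-IgM, CpG, PL2-3, anti-IgM with CpG, and media alone. AM-14 cells carry a transgenic B cell receptor that binds self IgG, so all groups share 1 receptor specificity. Anti-IgM, here antibody fragments from goat, crosslinks that receptor, and CpG, a phosphorothioate oligodeoxynucleotide, engages TLR9. PL2-3 is an antibody that binds chromatin, labelled here as a chromatin immune complex, which carries DNA to TLR9 through the receptor. For anti-IgM with CpG the treatment field of the labels reads none, while titles and descriptions name both agents, and the titles were followed. The sources used here give no dose or time of stimulation, and no age or further genotype of the mice. They do not state whether a group's 3 samples were separate cultures, animals or neither, and p-values therefore reflect only how far these arrays differ.

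Interleukin 12 signals through its receptor, made of the Il12rb1 and Il12rb2 chains, and through STAT4 to switch on Ifng in T and natural killer (NK) cells. T-bet binds the Ifng gene, raises its transcription and raises Il12rb2, so the axis feeds on itself, and interferon gamma in turn induces Tbx21. Eomes shares the T-box DNA-binding domain and supports Ifng in NK cells and CD8+ T cells. In B cells, T-bet is known for its part in responses to TLR9 and interferon gamma, in IgG2a switching, and in cells that accumulate with age and in lupus models.

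Of the 6 genes, 5 matched promoter sequence from RefSeq (build GRCm38.p6) and Il12rb1 did not. The 250 bases before the annotated start are shown for Ifng and Tbx21, the pair of genes that the results turn on. Capitals mark matches to motifs, which were searched on both strands. The TATA box was searched as TATAAA, the STAT motif as TTCNNNGAA and the core of the NFAT motif as GGAAA. The AP-1 motif was searched as TGANTCA and the T-box half-site as TCACACC. The NFAT match in Tbx21 is on the opposite strand and is printed as its complement. The Ifng window is chr10:118440796-118441045, plus strand, and the Tbx21 window is chr11:97115332-97115581, minus strand.
Ifng: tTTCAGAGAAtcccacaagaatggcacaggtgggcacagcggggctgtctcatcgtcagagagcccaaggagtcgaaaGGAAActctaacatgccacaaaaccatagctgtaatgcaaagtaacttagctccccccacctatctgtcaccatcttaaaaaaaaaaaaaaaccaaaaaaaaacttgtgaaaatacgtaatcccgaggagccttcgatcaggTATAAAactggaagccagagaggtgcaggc
Tbx21: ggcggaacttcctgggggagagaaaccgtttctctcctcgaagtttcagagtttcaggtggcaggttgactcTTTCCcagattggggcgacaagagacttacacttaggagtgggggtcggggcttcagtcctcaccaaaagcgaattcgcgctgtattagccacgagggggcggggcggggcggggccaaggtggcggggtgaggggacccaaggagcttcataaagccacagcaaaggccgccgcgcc
In the Ifng window the first base of TATAAA lay 30 bases upstream of the start, that of the STAT letters 249 and that of the NFAT core 172 bases upstream. The Tbx21 window held the NFAT core, 178 bases upstream, and none of the other 4 motifs. Neither window held the AP-1 or T-box letters. Of 32817 RefSeq windows of the same length, 12.4% held TATAAA, 7.01% the STAT letters, 55.6% the NFAT core, 6.75% the AP-1 letters and 3.33% the T-box letters. A match is a description of the letters and not a binding site. The genes lie on the same build as follows: Ifng on chromosome 10 from 118441046 to 118445894, Tbx21 on chromosome 11 from 97098007 to 97115331, Stat4 on chromosome 1 from 51987106 to 52107189, Il12rb1 on chromosome 8 from 70808360 to 70823542, Il12rb2 on chromosome 6 from 67285986 to 67376293, and Eomes on chromosome 9 from 118478186 to 118486132.

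Signals are linear MAS5 intensities, and array medians lay between 262.8 and 514.2. As a line for background, the 90th percentile of 18 genes of other organs (such as albumin and insulin) was taken on each array and lay between 264 and 789. Replicates 1 and 2 of each group were labelled with the Enzo kit and replicate 3 with the Ambion kit, according to the labels. The 3 anti-IgM+CpG arrays stood apart: Xist, the RNA of the inactive X chromosome in female cells, read 321 to 589 there and 4252 to 15543 on the other 12 arrays. Their beta-actin 5' to 3' control ratios were 0.105 to 0.193 whichever kit the labels named, against 0.335 to 0.747 on the other Enzo arrays and 0.108 to 0.201 on the other Ambion arrays. No label says whether these 3 arrays came from other mice or another run, and in comparisons that use them such a difference cannot be told apart from that of the stimulus. The fit was therefore also made without these arrays, and with labelling read from that ratio.

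With CpG, PL2-3 and anti-IgM+CpG, Ifng and Tbx21 rose strongly over media and Il12rb2 rose modestly, while Eomes fell with each of the 4 stimuli. With anti-IgM alone only Eomes passed the test. Stat4 and Il12rb1 were not called in any comparison with media. Changes are differences of log2(signal + 75.19) between groups from limma, with 3 arrays each, and "rose" or "fell" means a Benjamini-Hochberg adjusted p under 0.05. With anti-IgM 0 of the 6 genes rose and 1 fell, where 10.1% of the 13160 genes tested rose, 9.32% fell and 19.5% did either, and by unadjusted limma p under 0.05 the counts were 2 and 1. With CpG 3 rose and 1 fell, where 13.1% of all genes rose and 16.9% fell (30.1% in all). With PL2-3 3 rose and 1 fell, where 12.4% of all genes rose and 13.5% fell (25.9% in all). With anti-IgM+CpG 3 rose and 1 fell, where 17.2% of all genes rose and 24.8% fell (41.9% in all). The median log2 change of the 6 genes was 0.32, 0.74, 0.60 and 0.78 with anti-IgM, CpG, PL2-3 and anti-IgM+CpG, and that of all genes -0.13, -0.21, -0.10 and -0.29. Scaling bears on direction: of all genes called, 52.1%, 43.7%, 47.8% and 40.9% were higher in those 4 comparisons, and with equal array medians the shares were 79.4%, 77.7%, 67.1% and 82.6%, where the all-gene medians were 0.14, 0.18, 0.11 and 0.36. Ifng and Il12rb2 were at or above the array median on 0 of 3 media arrays and entered the tests only through stimulated arrays, so these counts describe the genes and support nothing further.

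**Figure D1:**
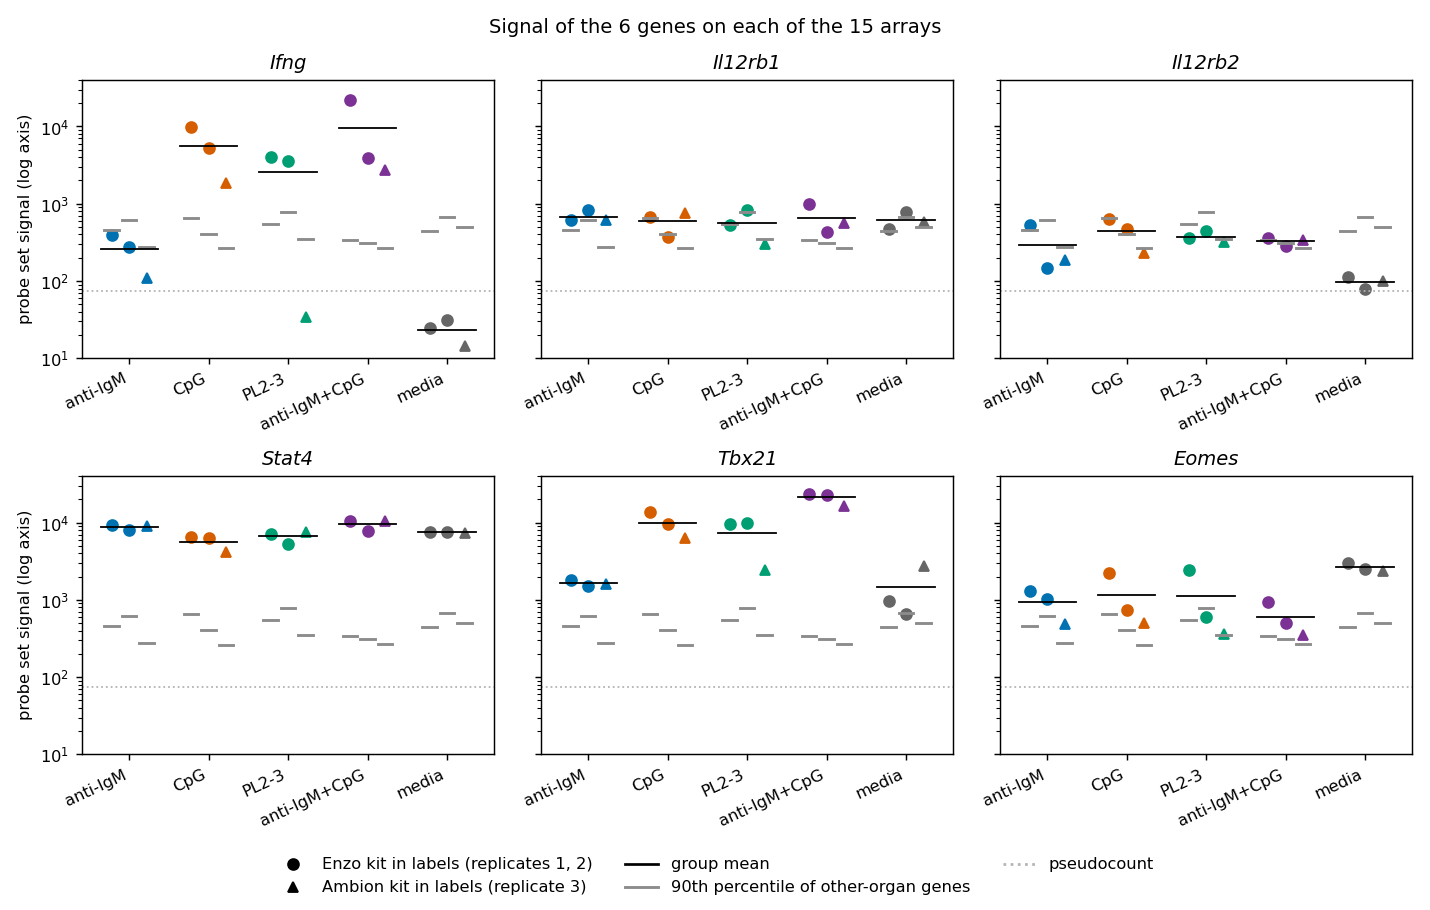
Signal of the 6 genes on each of 15 arrays (log axis, MAS5 units), in the order anti-IgM, CpG, PL2-3, anti-IgM+CpG and media; circles are Enzo arrays, triangles Ambion arrays, black bars group means, grey dashes the 90th percentile of other-organ genes on the array and the dotted line the pseudocount of 75.19. Ifng spans 14.2 to 21857 and Tbx21 663 to 23768, while Stat4 stays between 4118 and 10465.

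Ifng, the ligand, was at the bottom of the signal range in media and in its upper part with CpG. Its signals in replicates 1, 2 and 3 were 394, 273 and 109 with anti-IgM, 9730, 5232 and 1841 with CpG, and 4076, 3618 and 34.65 with PL2-3. They were 21857, 3948 and 2740 with anti-IgM+CpG, and 24.99, 31.2 and 14.2 in media. Every stimulated array lay above all media arrays, so no stimulated group overlapped media, but PL2-3 replicate 3 stood next to media and far below the other PL2-3 arrays. In rank on its own array, Ifng lay at percentiles 80.3 to 94.7 with CpG and at 97.5 on anti-IgM+CpG replicate 1, and in media it lay between the percentiles 2.30 and 5.64. Over the 15 arrays it was under the other-organ line on 7 and under the pseudocount on 4, which were the 3 media arrays and PL2-3 replicate 3.

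The log2 change of Ifng against media was 1.66 ± 0.76 with anti-IgM (SE, n = 3 arrays per group throughout), which was not called (limma adjusted p = 0.145, 95% interval 0.05 to 3.27). It rose by 5.56 ± 0.76 with CpG (limma adjusted p = 5.68e-05), by 3.60 ± 0.76 with PL2-3 (limma adjusted p = 0.00227) and by 5.997 ± 0.76 with anti-IgM+CpG (limma adjusted p = 1.61e-05). Because the media signals lay under the pseudocount, the size depends on it: with a pseudocount of 244.92 or none, the change was 0.87 or 3.35 with anti-IgM, 4.18 or 7.67 with CpG, 2.64 or 5.16 with PL2-3 and 4.60 or 8.11 with anti-IgM+CpG. With no pseudocount the anti-IgM change was called (limma adjusted p = 0.019). Measured against the other-organ line of the media arrays, with a geometric mean of 529, Ifng was at least 8.59-fold higher with CpG, 1.51-fold with PL2-3 and 11.7-fold with anti-IgM+CpG, on geometric means of 4542, 799 and 6183. These bounds moved with single arrays: with 1 array left out they ran from 5.87 (without CpG replicate 1) to 13.5 (without CpG replicate 3) for CpG, and from 6.22 (without its replicate 1) to 17.6 (without its replicate 3) for anti-IgM+CpG. The bound for PL2-3 was 7.26 without its replicate 3, and without its replicate 1 or 2 the mean lay under the line. The anti-IgM mean of 227 was under that line, and no fold is given. In RNA from bulk cells, a change in the share of cells of 1 type and a change in RNA per cell cannot be told apart.

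Within the Enzo arrays alone the log2 differences from media were 1.97, 6.13, 5.25 and 6.51 for anti-IgM, CpG, PL2-3 and anti-IgM+CpG. On the single Ambion array of each group they were 1.04, 4.42, 0.30 and 4.98. The labelling term of the fit for Ifng was -2.03 ± 0.51 (Ambion minus Enzo), and replicate 3 was the lowest array of its group in 5 of 5 groups. That term includes PL2-3 replicate 3, whose Ifng level minus the mean of replicates 1 and 2 was -5.16 log2 units. In media all arrays were under the pseudocount, so the rank there is one of background signals. With labelling read from the actin ratio, the rise with anti-IgM+CpG was 7.40 (limma adjusted p = 1.34e-05).

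The interleukin 12 receptor chains were dim. Il12rb2, the signalling chain that T-bet induces in T cells, had signals of 533, 148 and 185 with anti-IgM, 626, 477 and 231 with CpG, 359, 450 and 321 with PL2-3, 363, 286 and 344 with anti-IgM+CpG, and 114, 79.9 and 99.3 in media. All stimulated arrays lay above the media arrays, and 11 of the 15 arrays lay under the other-organ line. Il12rb2 rose by 1.51 ± 0.42 with CpG (limma adjusted p = 0.0125), by 1.38 ± 0.42 with PL2-3 (limma adjusted p = 0.0233) and by 1.23 ± 0.42 with anti-IgM+CpG (limma adjusted p = 0.0274). With anti-IgM the change was 0.93 ± 0.42 (limma adjusted p = 0.142). The geometric mean of each stimulated group was under the other-organ line of the media arrays, so no fold against that line is given. The calls were narrow. The one with CpG ended without CpG replicate 1 (limma adjusted p = 0.067), the one with PL2-3 without PL2-3 replicate 2 or 3 or media replicate 2 (0.0655 to 0.0724), and the one with anti-IgM+CpG without its replicate 1 or 3 or media replicate 1 or 2 (0.0529 to 0.0966). Inside each kit all 4 differences were positive, from 1.10 to 1.86 on Enzo arrays and from 0.58 to 1.27 on Ambion arrays.

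Il12rb1, the chain shared with the interleukin 23 receptor, read 610, 823 and 613 with anti-IgM, 681, 376 and 761 with CpG, 536, 837 and 306 with PL2-3, 997, 426 and 555 with anti-IgM+CpG, and 471, 782 and 579 in media. Every stimulated group overlapped media. The log2 changes were 0.16 (95% interval -0.63 to 0.94), -0.03 (-0.82 to 0.75), -0.18 (-0.96 to 0.61) and 0.05 (-0.74 to 0.83) with anti-IgM, CpG, PL2-3 and anti-IgM+CpG, each with an SE of 0.37. The lowest limma adjusted p of the 4 was 0.79.

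Stat4 was bright on all arrays and varied little. Its signals were 9297, 8066 and 9052 with anti-IgM, 6454, 6265 and 4118 with CpG, 7036, 5315 and 7596 with PL2-3, 10465, 7712 and 10383 with anti-IgM+CpG, and 7511, 7514 and 7316 in media. All CpG arrays lay below the media arrays, all anti-IgM and anti-IgM+CpG arrays lay above them, and PL2-3 overlapped media. The differences from media were 0.24 with anti-IgM (limma adjusted p = 0.44), -0.43 with CpG (0.103), -0.18 with PL2-3 (0.559) and 0.34 with anti-IgM+CpG (0.171), each ± 0.19, and none was called. Stat4 was called between stimuli: it rose by 0.77 ± 0.19 with anti-IgM+CpG against CpG (limma adjusted p = 0.0295) and fell by 0.67 with CpG against anti-IgM (limma adjusted p = 0.0493), with kit-wise differences of 0.49 and 1.32, and of -0.44 and -1.12, on Enzo and Ambion arrays. Of all genes, 4.53% were called with anti-IgM+CpG against CpG (1.91% higher, 2.61% lower) and 6.41% with CpG against anti-IgM (2.57% higher, 3.84% lower). The fall against anti-IgM lost its call when any 1 of the 6 arrays compared was left out (limma adjusted p = 0.0589 to 0.302). The rise against CpG lost it without CpG replicate 2 or 3 or anti-IgM+CpG replicate 1 or 3 (limma adjusted p = 0.0533 to 0.146).

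Tbx21 was present in media and had its highest signals with anti-IgM+CpG, a lead over CpG that was not called (limma adjusted p = 0.197). Its signals were 1797, 1519 and 1602 with anti-IgM, 13682, 9518 and 6403 with CpG, and 9468, 9891 and 2434 with PL2-3. They were 23768, 23049 and 16567 with anti-IgM+CpG, and 965, 663 and 2731 in media. The CpG and anti-IgM+CpG arrays lay above all media arrays and did not overlap each other, whereas media replicate 3 exceeded every anti-IgM array and PL2-3 replicate 3.

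Tbx21 rose by 2.88 ± 0.47 with CpG (limma adjusted p = 0.000288), by 2.26 ± 0.47 with PL2-3 (limma adjusted p = 0.00219) and by 4.02 ± 0.47 with anti-IgM+CpG (limma adjusted p = 8.53e-06). With anti-IgM the change was 0.41 ± 0.47 (limma adjusted p = 0.612, 95% interval -0.60 to 1.41). That value rested on media replicate 3: without it the change was 1.24 and was called (limma adjusted p = 0.0253), and on Enzo arrays alone it was 0.98 (limma adjusted p = 0.0154). On Enzo and Ambion arrays the differences from media were 0.98 and -0.74 with anti-IgM, 3.71 and 1.21 with CpG, 3.48 and -0.16 with PL2-3, and 4.74 and 2.57 with anti-IgM+CpG. The rise with PL2-3 was thus not seen on the Ambion arrays. The labelling term for Tbx21 was -0.33 ± 0.32.

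**Figure D2:**
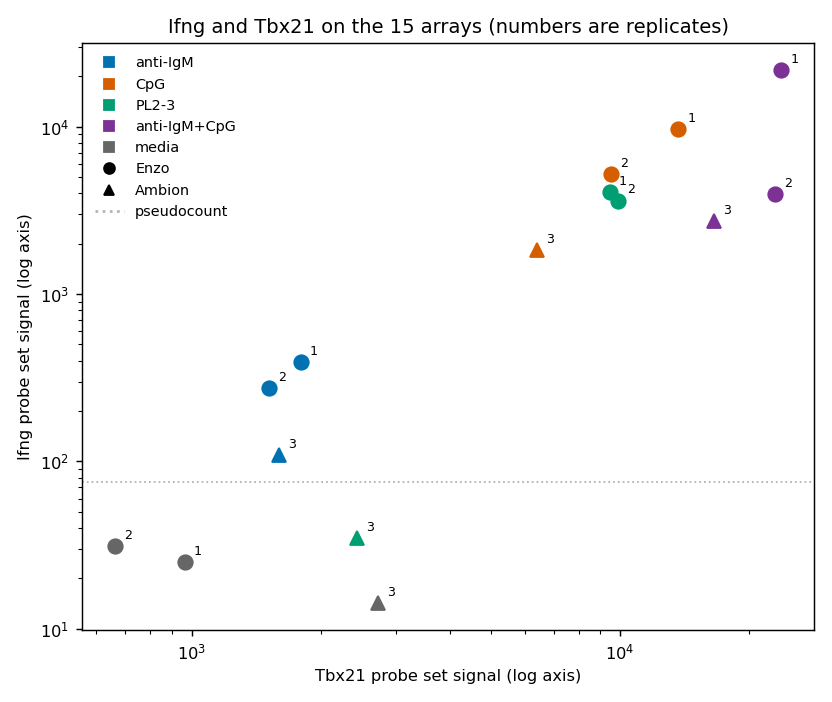
Signal of Ifng against that of Tbx21 on each of the 15 arrays, both on log axes in MAS5 units, coloured by group with the replicate number beside each point. PL2-3 replicate 3 (Ifng 34.65, Tbx21 2434) lies beside media replicate 3 (14.2 and 2731), away from PL2-3 replicates 1 and 2.

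Eomes moved the other way. Its brighter probe set, used for the gene, read 1283, 1021 and 481 with anti-IgM, 2211, 729 and 502 with CpG, 2448, 595 and 357 with PL2-3, 942, 501 and 354 with anti-IgM+CpG, and 3037, 2526.5 and 2362 in media. PL2-3 replicate 1 reached into the media range, and all other stimulated arrays lay below it. Eomes fell in all 4 comparisons, with log2 changes of -1.52 with anti-IgM (limma adjusted p = 0.0259), -1.41 with CpG (limma adjusted p = 0.0273), -1.59 with PL2-3 (limma adjusted p = 0.0162) and -2.10 with anti-IgM+CpG (limma adjusted p = 0.00157), each ± 0.45.

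The second Eomes probe set was dimmer, under the other-organ line on 10 of 15 arrays, and less even. It read 1201, 223 and 153 with anti-IgM, 1024, 331 and 192 with CpG, 1215, 145 and 19.6 with PL2-3, 46.3, 58.3 and 49.9 with anti-IgM+CpG, and 2036, 1693 and 108 in media. In a fit over 23059 probe sets its change was called with anti-IgM+CpG, at -2.80 ± 0.74 (limma adjusted p = 0.00749), and not with anti-IgM (-0.99), CpG (-0.84) or PL2-3 (-1.55). Eomes also had a labelling term, -1.003 ± 0.30, and replicate 3 was the lowest array in 5 of 5 groups. Without that term the calls with anti-IgM, CpG and PL2-3 ended (limma adjusted p = 0.107, 0.102 and 0.0742). The anti-IgM call also ended without any of its 3 arrays or without media replicate 1 or 3 (limma adjusted p = 0.0525 to 0.145), the CpG call without CpG replicate 2 or 3 or media replicate 1 or 3 (0.052 to 0.149), and the PL2-3 call without PL2-3 replicate 2 or 3 or media replicate 3 (0.0845 to 0.0999).

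NK cells are a known source of Eomes, and their markers were read beside it. Of 7 NK cell markers tested against media, 0 rose and 1, 2, 2 and 3 fell with anti-IgM, CpG, PL2-3 and anti-IgM+CpG, beside 9.32%, 16.9%, 13.5% and 24.8% of all genes, and counts this small are not read as a result about the list. Klrd1, the CD94 receptor chain, changed by -1.67, -2.01, -1.54 and -2.12 and fell in each comparison. The summed signal of the 7 markers was 2568 to 6676 with anti-IgM, 2447 to 7117 with CpG, 3516 to 7536 with PL2-3, 2829 to 6311 with anti-IgM+CpG, and 7428 to 9379 in media. PL2-3 reached into the media range of that sum and the other stimulated groups did not. Klre1 changed by -1.13, -1.42, -1.24 and -1.56 in the same order and fell with CpG, PL2-3 and anti-IgM+CpG. Gzma was negative with each stimulus and fell with anti-IgM+CpG (-1.34), and Klrk1 was negative with each and not called. Ncr1, Nkg7 and Prf1 did not follow Klrd1. Ncr1, a marker of NK cells, read 211 to 500 in media and was not called in any of the 4 comparisons. Its changes were -0.76, 0.38, 0.22 and 0.43 with anti-IgM, CpG, PL2-3 and anti-IgM+CpG. Nkg7 and Prf1 changed by 0.20 and 0.07 with PL2-3 and were negative with the other stimuli, and neither was called. In media the median of the other-organ genes lay between 203 and 271, and albumin, their brightest on average, read 485 to 724. A signal such as that of Ncr1 thus does not show that the marker was present. The part of NK cells in the Eomes result was not tested.

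**Figure D3:**
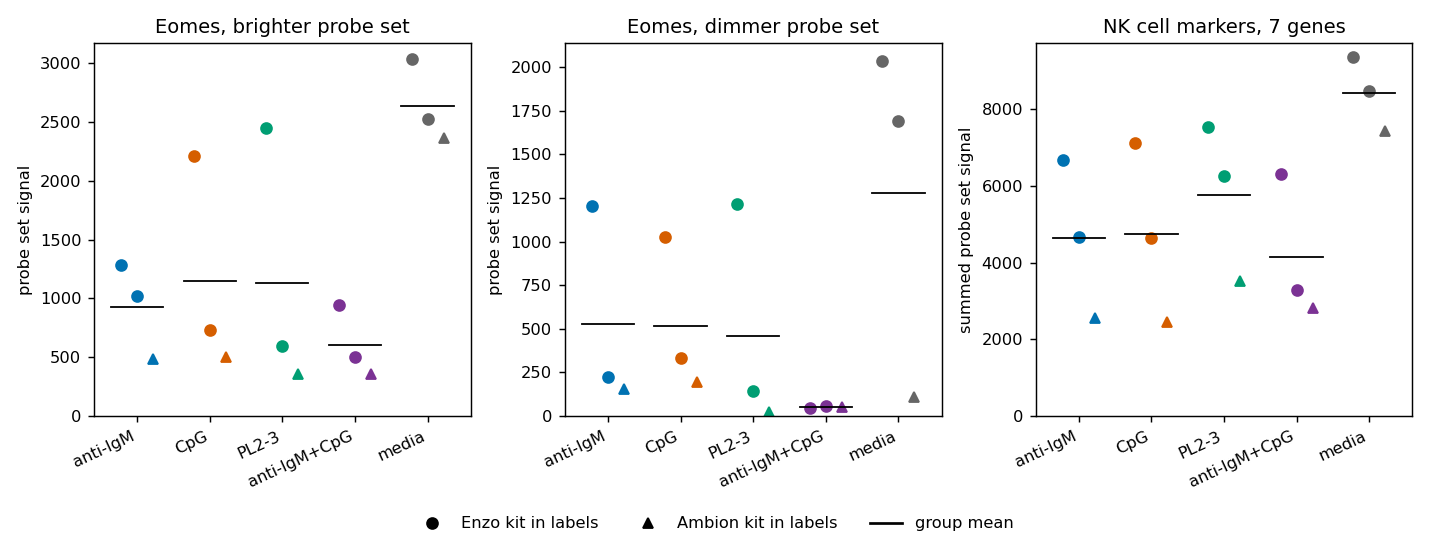
Signals of both Eomes probe sets and the summed signal of 7 NK cell markers on each array (linear axes from 0, MAS5 units), by group with media at the far end. The brighter Eomes probe set reads 2362 to 3037 in media, and the marker sum 7428 to 9379.

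**Figure D4:**
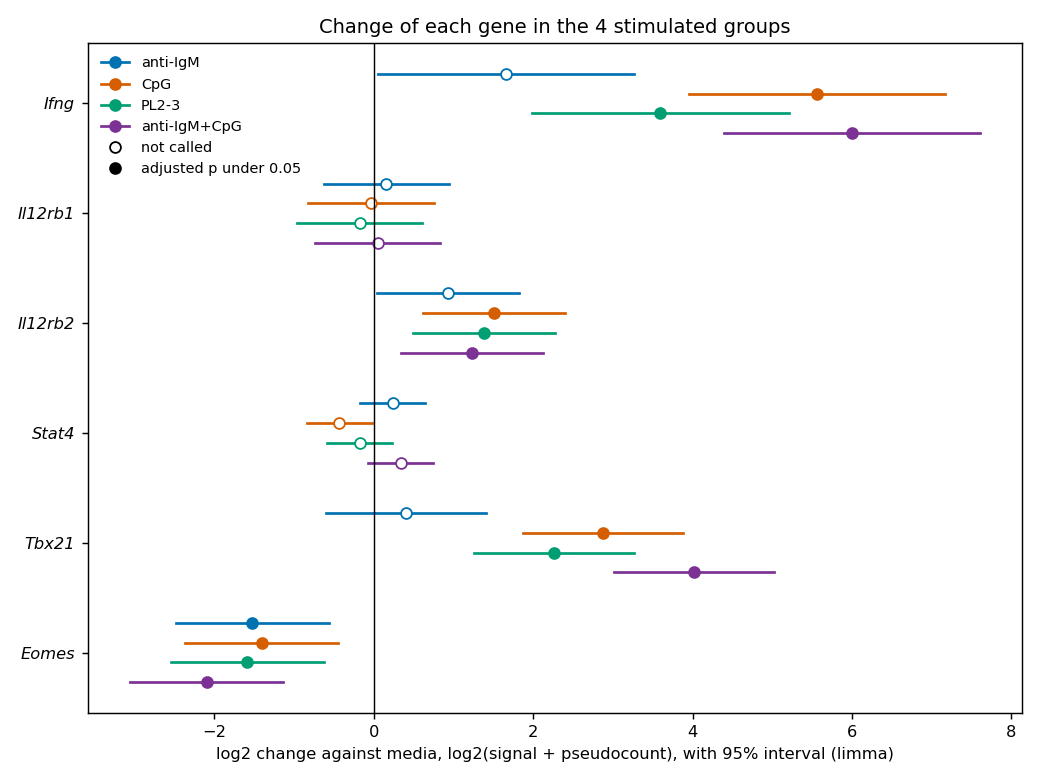
Log2 change of the 6 genes with each stimulus against media from limma, with 95% intervals; filled points passed an adjusted p of 0.05. Ifng and Tbx21 are filled with CpG, PL2-3 and anti-IgM+CpG, Eomes with all 4 stimuli, and Stat4 and Il12rb1 with none.

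Stimuli were then compared with one another. CpG exceeded anti-IgM for both Ifng, by 3.90 ± 0.76 (limma adjusted p = 0.00383), and Tbx21, by 2.47 ± 0.47 (limma adjusted p = 0.00351), and with Stat4 lower this made 3 of 6 genes called, beside the background given above. With no labelling term the Ifng call ended (limma adjusted p = 0.056). Anti-IgM+CpG exceeded anti-IgM for Ifng and Tbx21 as well, by 4.34 ± 0.76 for Ifng (limma adjusted p = 0.003) and 3.61 ± 0.47 for Tbx21 (limma adjusted p = 0.000326), where 9.07% of all genes were called (3.72% higher, 5.36% lower). Differences within kits had the same sign: for CpG against anti-IgM 4.16 and 3.38 for Ifng and 2.73 and 1.95 for Tbx21 on Enzo and Ambion arrays. Against CpG alone, adding anti-IgM changed Tbx21 by 1.14 (limma adjusted p = 0.197, 95% interval 0.13 to 2.15) and Ifng by 0.44 (limma adjusted p = 0.807, -1.17 to 2.05), and of the 6 genes only Stat4 was called. On Enzo arrays alone the Tbx21 difference was 1.03 and was called (limma adjusted p = 0.0128). However, the anti-IgM+CpG arrays labelled Enzo had beta-actin ratios of 0.105 and 0.193, in the Ambion range, against 0.559 and 0.556 with CpG. This limit holds for every Enzo value that uses anti-IgM+CpG.

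PL2-3 joins both signals in 1 ligand. Against anti-IgM, limma called 0 of the 6 genes, where 0.691% of all genes were called, and 3 had an unadjusted p under 0.05. Those 3 were Ifng (1.94, 95% interval 0.33 to 3.54, limma adjusted p = 0.528), Tbx21 (1.86, 0.85 to 2.87, limma adjusted p = 0.114) and Stat4 (-0.41, limma adjusted p = 0.678). The 2 PL2-3 arrays with Enzo labelling lay above all anti-IgM arrays for Ifng and the Ambion array below them. Against CpG, limma called 0, where 3.2% of all genes were called, and 1 had an unadjusted p under 0.05: Ifng at -1.96 (95% interval -3.57 to -0.35, limma adjusted p = 0.234), beside Tbx21 at -0.61 (-1.62 to 0.39, limma adjusted p = 0.66). Against anti-IgM+CpG, limma called 0, where 1.84% of all genes were called (1.32% higher, 0.517% lower), and 3 had an unadjusted p under 0.05: Ifng at -2.40 (limma adjusted p = 0.101), Tbx21 at -1.75 (limma adjusted p = 0.0626) and Stat4 at -0.52 (limma adjusted p = 0.151).

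These values turn on PL2-3 replicate 3. Its Ifng level minus the mean of replicates 1 and 2 was -5.16 log2 units, a drop that 2 of 13160 genes matched or passed, Ifng included. The same difference was -1.96 for Tbx21, matched or passed by 340 genes, -1.59 for Eomes and 0.31 for Stat4. Without that array, Ifng and Tbx21 exceeded anti-IgM by 3.24 (limma adjusted p = 0.0168) and 2.54 (limma adjusted p = 0.0136), both called, and Ifng exceeded media by 4.90. On Enzo arrays PL2-3 minus CpG was -0.88 for Ifng and -0.24 for Tbx21, and on Ambion arrays it was -4.12 and -1.37.

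Ordered by mean level, Ifng and Tbx21 both ran anti-IgM+CpG, CpG, PL2-3, anti-IgM, media. No neighbours in either order were called apart, with limma adjusted p = 0.807, 0.234, 0.528 and 0.145 down the order for Ifng and 0.197, 0.66, 0.114 and 0.612 for Tbx21. For Eomes media came first, and only the step between CpG, the next group, and media was called (limma adjusted p = 0.0273).

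Whether anti-IgM and CpG together gave more or less than the sum of both log2 changes was tested as non-additivity. Limma called 0 of the 6 genes, where 2.5% of all genes were called, and 0 had an unadjusted p under 0.05. The estimates were -1.22 ± 1.07 for Ifng (limma adjusted p = 0.591), 0.74 ± 0.67 for Tbx21 (limma adjusted p = 0.609), -1.21 for Il12rb2 (limma adjusted p = 0.304) and 0.53 for Stat4 (limma adjusted p = 0.319). The sign for Ifng turned to 0.18 with labelling read from the actin ratio. Without the 3 anti-IgM+CpG arrays in the fit, the counts of the 6 genes called with anti-IgM, CpG and PL2-3 against media stayed at 1, 4 and 4.

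Among all tested genes, the patterns most like each of the 6 were found by Pearson correlation of log2 values over the 15 arrays, which share the 5 groups and the 2 kits, so r is a description. Nearest to Ifng were Socs1, an inhibitor of cytokine signalling (r = 0.94), the transcription factor Irf1 (0.93) and Tbx21 itself (0.91, and 0.91 on the 12 arrays without anti-IgM+CpG). Nearest to Tbx21 were Batf, an AP-1 family factor (0.92), Ifng (0.91) and Stx11, a syntaxin of secretory granules (0.91). Socs1 read 523, 652 and 441 with anti-IgM, 5065, 3096 and 1278 with CpG, 1063, 1355 and 404 with PL2-3, 3207, 2315 and 1675 with anti-IgM+CpG, and 368, 270 and 406 in media. Its PL2-3 replicate 3 lay inside the media range, where Ifng on that array lay just above the media arrays. Irf1 read 30478, 25142 and 6206 with PL2-3 and 9935, 11119 and 6767 in media, with replicate 3 again the low PL2-3 array. Batf read 11272, 12630 and 8404 with PL2-3 and 1914, 2229 and 3394 in media, where all PL2-3 arrays stayed above media. The leading neighbours were Rwdd4a for Il12rb2 (0.91), Pi4kb for Eomes (0.91), Leprotl1 for Stat4 (0.80) and Gm20052 for Il12rb1 (0.79).

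Cytokines that feed the axis, and their receptors, were followed beside it. Of 11 tested genes for inducing cytokines and their receptors, 0 rose and 3 fell with anti-IgM, 2 rose and 2 fell with CpG, 1 rose and 3 fell with PL2-3, and 2 rose and 5 fell with anti-IgM+CpG. Over all genes 10.1%, 13.1%, 12.4% and 17.2% rose and 9.32%, 16.9%, 13.5% and 24.8% fell in these comparisons. The CpG counts lay near those shares, and the counts of this list and of those that follow describe few genes, so the values of single genes are given. With CpG, Ebi3, a subunit of interleukin 27, averaged 18949, against 1630 in media, and rose by 3.49 ± 0.23 (limma adjusted p = 2.11e-07). Il12b, the p40 subunit of interleukin 12, averaged 6216 with CpG, against 580 in media, and rose by 3.09 ± 0.43 (limma adjusted p = 6.12e-05). With PL2-3, Il12b rose by 1.27 ± 0.43 (limma adjusted p = 0.0374), to a mean of 1737. Set against CpG, PL2-3 was lower for Ebi3 by -3.12 (limma adjusted p = 1.3e-06) and for Il12b by -1.82 (limma adjusted p = 0.026).

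Some other genes upstream fell. Il12a, the p35 subunit of interleukin 12, changed by -1.97 with anti-IgM (limma adjusted p = 0.000336), -1.36 with PL2-3 (0.00327) and -2.25 with anti-IgM+CpG (2.73e-05), and with CpG by -0.51, which was not called. The interleukin 18 receptor gene Il18r1 fell with anti-IgM (-2.02), PL2-3 (-1.78) and anti-IgM+CpG (-2.08). Its partner Il18rap fell (-1.99 and -1.94) with anti-IgM and anti-IgM+CpG, where another probe set gave -0.63 and -0.39. Il2rb, the interleukin 2 and 15 receptor beta chain, fell with CpG (-1.42, limma adjusted p = 0.0128) and with PL2-3 (-1.32, limma adjusted p = 0.0223). It also fell with anti-IgM+CpG (-1.10, limma adjusted p = 0.0361).

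In the group of kinases, STATs, interferon gamma receptor chains and SOCS inhibitors, 8 genes were tested. With anti-IgM 0 rose and 3 fell, with CpG 2 and 4, with PL2-3 2 and 2, and with anti-IgM+CpG 2 and 4, beside the all-gene shares just given. The 2 that rose were the inhibitors Socs1, by 2.74, 1.13 and 2.51, and Socs3, by 2.16, 0.84 and 2.36, with CpG, PL2-3 and anti-IgM+CpG. The receptor chain Ifngr1 fell with all 4 stimuli: with anti-IgM (-1.20, limma adjusted p = 0.000708), with CpG (-0.80, limma adjusted p = 0.00721), with PL2-3 (-1.002, limma adjusted p = 0.0018) and with anti-IgM+CpG (-1.42, limma adjusted p = 5.34e-05). Ifngr2 also fell with all 4, at -0.79 with anti-IgM, -1.01 with CpG, where another probe set gave -0.03, -0.64 with PL2-3 (limma adjusted p = 0.0449) and -1.25 with anti-IgM+CpG (limma adjusted p = 0.000352). The kinase Jak2 fell with anti-IgM (-0.64) and with CpG (-0.55, limma adjusted p = 0.0267).

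Of 14 tested transcription factors known to act at Ifng or Tbx21, 2 rose and 4 fell with anti-IgM, 4 and 3 with CpG, 3 and 6 with PL2-3, and 4 and 7 with anti-IgM+CpG, to be read against the same all-gene shares. Batf, which pairs with Jun and IRF4, rose by 2.79 ± 0.24 with CpG (limma adjusted p = 1.19e-06), 2.09 ± 0.24 with PL2-3 (limma adjusted p = 1.96e-05) and 2.90 ± 0.24 with anti-IgM+CpG (limma adjusted p = 4.47e-07). Ets1, a partner of T-bet in T cells, fell with all 4 stimuli, at -2.05, -2.42, -2.94 and -3.93 with anti-IgM, CpG, PL2-3 and anti-IgM+CpG, and its 3 other probe sets gave changes of the same sign. The homeobox factor Hlx, which acts with T-bet on Ifng in T cells, fell, at -1.34, -1.49 and -2.12 with anti-IgM, PL2-3 and anti-IgM+CpG. Bcl6, a repressor, fell with anti-IgM (-1.36), and Nfatc2 fell with CpG (-2.24), where its other 4 probe sets gave -0.62 to -0.03.

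Among 11 genes known as T-bet targets in T and NK cells, 2 rose with each stimulus and 3, 3, 5 and 4 fell with anti-IgM, CpG, PL2-3 and anti-IgM+CpG, beside 10.1% to 17.2% of all genes that rose and 9.32% to 24.8% that fell. The chemokines Ccl3 and Ccl4 were the ones that rose, Ccl3 by 2.52, 2.93, 3.34 and 3.61 and Ccl4 by 2.03, 2.35, 2.72 and 2.66 in that order, and thus also with anti-IgM, where Tbx21 was not called. The chemokine receptor Cxcr3 fell with all 4 stimuli, at -1.52, -2.04, -1.57 and -2.26, also where Tbx21 rose.

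Genes induced by interferon gamma rose with CpG and with anti-IgM+CpG. Of 20 tested, 0 rose and 1 fell with anti-IgM, 13 rose and 0 fell with CpG, 3 rose and 0 fell with PL2-3, and 11 rose and 1 fell with anti-IgM+CpG, where 10.1%, 13.1%, 12.4% and 17.2% of all genes rose. The 3 of 20 with PL2-3 lay near that share. Their median log2 changes were -0.12, 1.29, 0.05 and 1.22, beside the all-gene medians given above. The chemokine Cxcl10 averaged 14887 with CpG, against 1276 in media, and rose by 3.48 ± 0.50 (limma adjusted p = 9.28e-05). Its rise with anti-IgM+CpG was 2.88 ± 0.50 (limma adjusted p = 0.000292). The interferon-induced GTPase Ifi47 rose by 2.19 ± 0.36 with CpG (limma adjusted p = 0.000275) and by 2.01 ± 0.36 with anti-IgM+CpG (limma adjusted p = 0.000345). Igtp, another such GTPase, rose by 1.91 ± 0.39 with CpG (limma adjusted p = 0.00142) and by 2.24 ± 0.39 with anti-IgM+CpG (limma adjusted p = 0.000255). Ciita, which drives MHC class II genes, fell by 1.23 with anti-IgM (limma adjusted p = 0.0261), and its change with anti-IgM+CpG was -1.48.

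With PL2-3 the genes that rose were Socs1, by 1.13 ± 0.35 (limma adjusted p = 0.0238), Cd274, the ligand PD-L1, by 1.01 ± 0.30 (limma adjusted p = 0.0217), and the adhesion molecule Icam1, by 0.56 ± 0.19 (limma adjusted p = 0.0412). Cxcl10 averaged 1605 with PL2-3, and its change against media was 0.05 ± 0.50 (limma adjusted p = 0.961), in the group in which Ifng rose by 3.60. Cxcl10 read 1913, 2502 and 400 with PL2-3 and 1460, 794 and 1573 in media, so PL2-3 replicates 1 and 2 lay above the media arrays and replicate 3 below them. Without that replicate the Cxcl10 change was 0.70 ± 0.49 and was not called (limma adjusted p = 0.36), beside 4.90 for Ifng, and against CpG it was -2.78 (limma adjusted p = 0.00557). Set directly against CpG, PL2-3 gave 0 higher and 8 lower of the 20, where 1.6% of all genes were called higher and 1.6% lower, with a median of -0.99 beside 0.06 for all genes. Among them Cxcl10 differed by -3.43 (limma adjusted p = 0.00072), Ifi47 by -2.24 (limma adjusted p = 0.0015), Socs1 by -1.61 (limma adjusted p = 0.0154) and Igtp by -1.56 (limma adjusted p = 0.0348). Against anti-IgM, PL2-3 gave 0 called of 20 by limma, with 2 at an unadjusted p under 0.05, where 0.691% of all genes were called. Against anti-IgM, CpG gave 13 higher, where 2.57% of all genes were, and anti-IgM+CpG gave 11 higher, where 3.72% were, each with 0 lower.

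The PL2-3 counts depended on few arrays. Against media, 7 of the 20 rose on Enzo arrays alone and 3 without PL2-3 replicate 3, but 0 without PL2-3 replicate 1 or 2, without media replicate 1 or with no labelling term. Against CpG, between 3 and 12 of the 20 fell over all settings, with 3 when CpG replicate 1 or PL2-3 replicate 3 was left out. With CpG against media, the count that rose was between 10 and 14.

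**Figure D5:**
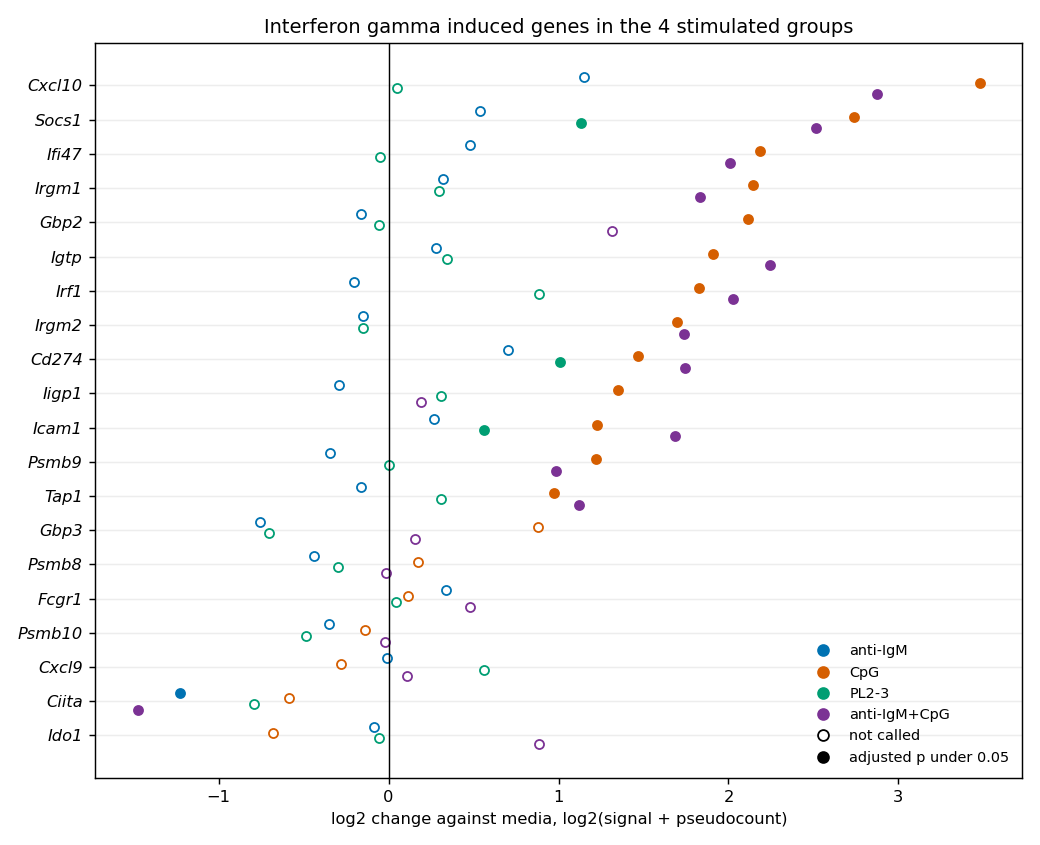
Log2 change against media of 20 genes induced by interferon gamma, in rows by gene, with points coloured for anti-IgM, CpG, PL2-3 and anti-IgM+CpG. Filled points passed a limma adjusted p of 0.05. With CpG 13 points are filled, with PL2-3 3, and Cxcl10 lies at 3.48 with CpG and 0.05 with PL2-3.

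Markers of cell types that could carry genes of the axis besides B cells were compared with media as well. Of 8 tested T cell markers, 0 rose and 3, 4, 3 and 5 fell with anti-IgM, CpG, PL2-3 and anti-IgM+CpG, beside 9.32%, 16.9%, 13.5% and 24.8% of all genes. The summed signal of the 9 T cell markers measured, which include the untested Cd8b1, was 3418 to 5655, 2347 to 3746, 2825 to 5018 and 2196 to 4998 in those groups, against 7309 to 8469 in media. Of 10 myeloid and dendritic cell markers, 0 rose and 3, 4, 2 and 8 fell, with sums of 55809 to 95889, 47555 to 91832, 51057 to 82043 and 14150 to 145808, against 116394 to 239235 in media, which overlapped anti-IgM+CpG alone. Of the B cell markers themselves 5, 5, 5 and 6 of 7 tested fell, with sums of 78065 to 98836, 94468 to 107035, 54375 to 89070 and 47990 to 71549, against 199674 to 280393 in media, and all 7 were at or above the array median on each media array. Sums of all these lists, B cells included, and of the NK markers were lower on every CpG array than on every media array. They thus do not tell which cells carried the rise of Ifng, Tbx21 and Il12rb2 with CpG. With PL2-3 the NK sum reached into the media range. The sums hold some background signal: the 18 other-organ genes summed to 2576 to 5176 with CpG and 4167 to 5196 in media. In media Cd4 read 41 to 250 and Cd8b1 26 to 242. The median of the other-organ genes lay between 203 and 271 there, and albumin, their brightest on average, read 485 to 724. Cd4 and Cd8b1 thus did not stand above other-organ genes, and other markers did, such as Cd3e at 1066 to 1588. The part of other cells in these results was not tested.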

How the data were processed

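Per the labels' protocols, RNeasy kits gave total RNA, which was biotin-labelled. The deposited values are linear intensity values per probe set, made with MAS5 per the submitters' processing notes, which state neither version nor target value. The mean without the extreme 2% at each end was 1491 to 1494 on all 15 arrays. No depth applies to arrays, and their number limits the precision.

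The labels put 3 arrays in each of 5 groups. The 64 control probe sets were left out, and they held all 3 empty cells. Among the 45037 others, 34945 named 1 gene, 932 named several and 9160 named none, and 34741 were matched to RefSeq by gene identifier. For each of 18193 genes the brightest probe set on average was kept, and the 13160 genes that reached the array's median on 3 or more arrays were tested. On log2(signal + 75.19), the 20th percentile of all signals, limma 3.58.1 in R 4.3.3 fitted the 5 groups and the labelling kit (9 residual degrees of freedom, eBayes with intensity trend), two-sided, with Benjamini-Hochberg adjustment within a comparison. The procedure was tested on simulated data. An exact permutation test of 3 arrays against 3 cannot go below 0.1 and was not used. Tables were read with jsonlite 2.0.0 and pandas 2.3.3 and figures drawn with matplotlib 3.10.9 in Python 3.11.15.

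The 6 genes, the gene lists and the tests were chosen with earlier results of these data known. From each list except the T cell, B cell and myeloid markers, the called genes with the 3 largest log2 changes per comparison with media were named. They were followed in other comparisons. The excepted lists are given by counts and sums, with Cd3e, Cd4 and Cd8b1 named for their signal. Of the NK markers, those not called are named too. For each of the 6 genes the 3 most correlated genes were found, of which the nearest are printed. Comparisons that share media or another group are not independent.

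Pairing by replicate number was checked on the arrays' deviations from group means. Without anti-IgM+CpG, 18 of 18 same-numbered pairs correlated over 0.1 across genes (0.12 to 0.68), against 8 of 36 pairs with different numbers. With an anti-IgM+CpG array, 0 of 12 same-numbered pairs did. Replicate 3 is also the Ambion array of each group, so for it number and kit cannot be told apart. Between replicates 1 and 2 the order was mixed. Media 2 correlated at 0.24 with CpG 1 and 0.17 with CpG 2, and anti-IgM 2 at 0.17 with PL2-3 1 and 0.55 with PL2-3 2. The check thus does not settle whether the numbers pair the arrays. The alternatives were a replicate block, no labelling term, Enzo arrays only, equal array medians, quantile normalization, no pseudocount or one of 244.92, the filter dropped or set on all 15 arrays, no intensity trend, a fit of only those groups compared, averaging probe sets or testing each one, and leaving out each array. Labelling read from the beta-actin ratio was tried besides. Leaving out the 3 anti-IgM+CpG arrays, the bounds for Ifng and the values of Cxcl10 with an array left out, and the counts of interferon gamma induced genes across settings, were chosen after seeing the data.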

Additional observations from a re-analysis of the deposited data

How the results depend on the processing

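In all, 60 results, 49 of them of single genes, were recomputed under the alternatives, which gave 1241 values, and 1106 of these kept direction and call, or a count within 1.5 times. Of the 6 genes, limma called 1 with anti-IgM against media, but 0 with equal array medians, no labelling term, no intensity trend or the mean of probe sets, 2 with no pseudocount and 0 to 1 with 1 array left out. With a filter on all 15 arrays, which leaves 3 of the 6, the count was 2 in place of 4 for CpG, PL2-3 and anti-IgM+CpG against media, and 1 in place of 2 for anti-IgM+CpG against anti-IgM. For PL2-3 against media it was also 2 on Enzo arrays, and 2 to 4 with 1 array left out (2 without PL2-3 replicate 2 or 3). For CpG and for anti-IgM+CpG against media it was 3 to 4 with 1 array left out. For anti-IgM+CpG against CpG it was 0 in place of 1 with quantile normalization, no labelling term or no intensity trend, and 0 to 1 with 1 array left out. For CpG against anti-IgM it was 1 in place of 3 with no labelling term and 2 with any 1 array left out. For PL2-3 against anti-IgM it was 2 in place of 0 on Enzo arrays, 1 with the compared groups only and 0 to 2 with 1 array left out (2 without PL2-3 replicate 3). For PL2-3 against anti-IgM+CpG it was 3 in place of 0 with equal array medians, 1 on Enzo arrays or with the compared groups only, and 0 to 1 with 1 array left out. No member count moved with the replicate block: it stayed at 1, 4, 4 and 4 for anti-IgM, CpG, PL2-3 and anti-IgM+CpG against media and changed no call of the 6 genes. Signs turned only for values that were not called. Ifng non-additivity was 0.18 with labelling read from the actin ratio. Il12rb1 against media was 0.30 (CpG) and 0.034 (PL2-3) with quantile normalization, 0.35 and 0.011 with equal array medians, and 0.13 for PL2-3 on Enzo arrays. Stat4 was -0.045 for anti-IgM+CpG against anti-IgM with quantile normalization, -0.056 for PL2-3 against CpG on Enzo arrays, and 0.046 for PL2-3 against media with equal array medians. With 1 array left out, Ifng for anti-IgM+CpG against CpG was -0.15 to 1.13, and Il12rb1 against media was -0.035 to 0.31 with anti-IgM, -0.33 to 0.29 with CpG, -0.47 to 0.15 with PL2-3 and -0.25 to 0.33 with anti-IgM+CpG. Tbx21 was -0.077 to 1.24 for anti-IgM against media, -0.92 to 0.065 for PL2-3 against CpG and -0.10 to 1.22 for non-additivity. Counts over all genes ranged from 1427 to 3406 for anti-IgM against media (2561 in the report's setting), 2474 to 5643 for CpG (3955), 2288 to 4820 for PL2-3 (3415) and 4324 to 9052 for anti-IgM+CpG (5520). Between stimuli they ranged from 34 to 218 for PL2-3 against anti-IgM (91), 208 to 635 against CpG (421) and 24 to 1667 against anti-IgM+CpG (242). They were 303 to 2137 for anti-IgM+CpG against anti-IgM (1194), 191 to 1602 for it against CpG (596), 496 to 1187 for CpG against anti-IgM (843) and 24 to 1315 for non-additivity (329). The highest counts for anti-IgM+CpG against another stimulus came without its replicate 3. With equal array medians, higher genes made up 8.48% in place of 71.9% of calls for PL2-3 against anti-IgM+CpG, 26.5% in place of 49.9% against CpG, 86.3% in place of 41% for anti-IgM+CpG against anti-IgM, 72% in place of 42.3% against CpG, and 51.6% in place of 40.1% for CpG against anti-IgM. Except where stated, the cause of these shifts was not tested. Ifng in media and most Il12rb2 signals lay near background, which limits the sizes of their changes.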
